A study of Mus musculus with 32 samples.

Results

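The mRNA levels of 10 regulators of hepatic lipid metabolism were compared between the livers of fed and fasted mice with and without medium-chain acyl-CoA dehydrogenase (MCAD, encoded by Acadm). The 10 genes were chosen by name, as nuclear receptors (Ppara, Pparg, Rxra, Nr1h3), coactivators (Ppargc1a, Ppargc1b), transcription factors (Creb3l3, Srebf1, Mlxipl) and the SREBP regulator Insig2, out of 20076 genes in the count table. The study set out to find how MCAD deficiency alters the liver in combination with diet and fasting. All mice were male C57BL/6J, either Acadm-knockout (KO, lacking the enzyme in the whole body) or wild-type littermates (WT). They received a semisynthetic low-fat (LF) or high-fat (HF) diet for 6 weeks and were then either fasted for 16 h (fasted) or left with that diet (fed), which gives 8 groups of genotype, diet and feeding state, with 4 mice each. The ages in the sample labels run from 7.5 to 16 without a unit. RNA was taken from freeze-clamped whole liver, so that fewer cells of a type and less RNA per cell cannot be told apart.

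The members act in a common circuit. PPARα, encoded by Ppara, is the fatty acid sensor that switches on mitochondrial and peroxisomal oxidation and ketogenesis in the fasted liver, and it binds DNA as a heterodimer with RXRα (Rxra), which is also the partner of PPARγ (Pparg) and of the oxysterol receptor LXRα (Nr1h3). PGC-1α and PGC-1β (Ppargc1a, Ppargc1b) are coactivators that these receptors recruit. CREB3L3 (also CREBH) is a membrane-bound factor of liver and intestine that is released by cleavage and acts on triglyceride metabolism together with PPARα. On the opposite side, SREBP-1 (Srebf1) and ChREBP (Mlxipl) drive lipogenesis after feeding, the former under insulin and LXRα, the latter under glucose. INSIG-2 (Insig2) retains SREBP precursors in the endoplasmic reticulum. Several of these proteins are controlled by ligands, cleavage or localization, none of which an mRNA count measures.

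The sequences around the start sites of the 4 members whose mRNA moved most clearly with feeding, or differently on the 2 diets, are shown first, because the reads come from the 3′ ends of transcripts and add up all starts of a gene. RefSeq (GRCm38.p6) gave 19 start sites for 9 of the 10 members, each with 300 bases (250 before and 50 after the start); Ppargc1b was not among them. Srebf1 and Insig2 are known to be transcribed from alternative first exons, and 3 starts were listed for each. Searched on both strands were the E-box CACGTG, the sterol regulatory element TCACNCCAC, the nuclear receptor hexamer AGGTCA, the CCAAT box and the cyclic AMP response element TGACGTCA. Capitals mark the matches (ATTGG is the CCAAT box on the other strand).
Srebf1, chr11:60210422-60210721, minus strand: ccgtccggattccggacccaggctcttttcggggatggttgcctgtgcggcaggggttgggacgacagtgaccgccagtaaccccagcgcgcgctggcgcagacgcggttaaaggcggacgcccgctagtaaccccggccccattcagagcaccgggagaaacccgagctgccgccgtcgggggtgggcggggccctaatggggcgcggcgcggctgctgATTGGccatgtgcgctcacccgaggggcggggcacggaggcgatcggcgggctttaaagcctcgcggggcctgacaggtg
Srebf1, chr11:60220578-60220877, minus strand: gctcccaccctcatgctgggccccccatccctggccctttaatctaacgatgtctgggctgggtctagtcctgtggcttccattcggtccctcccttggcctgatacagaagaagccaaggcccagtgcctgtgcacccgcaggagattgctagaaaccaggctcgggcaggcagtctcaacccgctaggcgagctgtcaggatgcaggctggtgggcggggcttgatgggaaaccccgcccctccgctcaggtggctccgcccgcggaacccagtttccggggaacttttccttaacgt
Mlxipl, chr5:135089640-135089939, plus strand: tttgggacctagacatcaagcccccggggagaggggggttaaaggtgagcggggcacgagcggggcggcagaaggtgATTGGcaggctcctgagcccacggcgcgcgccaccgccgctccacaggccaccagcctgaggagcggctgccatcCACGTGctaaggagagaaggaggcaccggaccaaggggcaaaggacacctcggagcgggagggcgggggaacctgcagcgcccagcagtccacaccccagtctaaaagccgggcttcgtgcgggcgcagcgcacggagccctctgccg
Mlxipl, chr5:135106641-135106940, plus strand: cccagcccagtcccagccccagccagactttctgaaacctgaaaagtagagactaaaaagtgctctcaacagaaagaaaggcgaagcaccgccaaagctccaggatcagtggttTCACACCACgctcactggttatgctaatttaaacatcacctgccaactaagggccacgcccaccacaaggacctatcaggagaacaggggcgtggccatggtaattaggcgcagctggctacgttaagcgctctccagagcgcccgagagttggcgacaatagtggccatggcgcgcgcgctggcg
Insig2, chr1:121332540-121332839, minus strand: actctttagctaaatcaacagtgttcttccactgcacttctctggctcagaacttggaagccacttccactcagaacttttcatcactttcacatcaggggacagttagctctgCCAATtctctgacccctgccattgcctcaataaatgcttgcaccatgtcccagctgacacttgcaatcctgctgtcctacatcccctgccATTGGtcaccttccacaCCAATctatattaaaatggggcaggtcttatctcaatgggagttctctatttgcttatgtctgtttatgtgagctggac
Insig2, chr1:121327975-121328274, minus strand: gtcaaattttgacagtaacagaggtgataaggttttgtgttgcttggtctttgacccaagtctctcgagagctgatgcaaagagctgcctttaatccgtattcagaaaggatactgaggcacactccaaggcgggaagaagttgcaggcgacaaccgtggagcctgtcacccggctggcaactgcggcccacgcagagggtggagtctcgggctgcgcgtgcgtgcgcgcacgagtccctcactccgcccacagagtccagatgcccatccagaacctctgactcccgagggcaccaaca
Creb3l3, chr10:81092542-81092841, minus strand: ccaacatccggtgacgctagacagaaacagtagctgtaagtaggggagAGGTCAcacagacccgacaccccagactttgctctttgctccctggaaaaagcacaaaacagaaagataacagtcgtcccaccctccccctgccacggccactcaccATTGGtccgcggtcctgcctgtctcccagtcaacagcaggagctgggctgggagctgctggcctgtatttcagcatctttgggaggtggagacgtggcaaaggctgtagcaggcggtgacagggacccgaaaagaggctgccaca
The first Srebf1 sequence and the first Insig2 sequence held 1 and 3 CCAAT boxes, and the second sequence of each gene held no match. Not printed were the third Srebf1 start, with 1 CCAAT box, and the third Insig2 and second Creb3l3 starts, without a match. The E-box occurred at 1 of the 19 member starts, the first of Mlxipl, against 7.15% of all 32851 promoters in the table. The sterol regulatory element also occurred at 1 start, the second of Mlxipl, against 1.24% of all promoters. The hexamer was found at 4 starts (16.3% of all), the CCAAT box at 7 (37.4%) and the cyclic AMP response element at 0 (1.79%). These matches describe letters only and say nothing about binding.

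Of the 32 libraries, 30 were used. KO HF fasted replicate 4 had 41598 CPM (read counts scaled to a common library size) in the summed heart markers, against at most 334.5 in the 30, and 817 CPM in the summed hepatocyte markers, against at least 39202 in the 30. WT LF fed replicate 2 had 32559 CPM in the hepatocyte markers and 1178 CPM in the summed stellate cell markers, against at most 625 in the 30, and 5 members below and 1 above their range in the 30. Total counts per library ran from 2031053 to 4292200, with a median of 2899001. Acadm itself had 26 to 94 counts in the 16 KO libraries and 566 to 2752 in the 16 WT libraries. Apart from these, WT HF fasted replicate 2 held 17633 CPM and KO HF fed replicate 1 held 2633 CPM of acinar pancreas markers (at most 59.4 in the other 28), and KO LF fasted replicates 3 and 4 carried adrenal cortex markers (290.3 and 125 CPM, at most 40.9 in the others). KO LF fasted replicate 1 had 39202 CPM in the hepatocyte markers, 565 CPM in the Kupffer cell markers and 475 CPM in the endothelial markers, against at least 59992, at most 271 and at most 369 CPM in the rest of its group. Results were therefore also computed with all 32 libraries, with 31 (without the heart library), and with 26 (without the 4 with pancreas or adrenal markers).

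Fasting moved more members than the other factors. Averaged over genotype and diet, 7 of 10 members passed the test (adjusted p below 0.05, edgeR quasi-likelihood with Benjamini-Hochberg adjustment over 11566 genes), against 18.9% of all genes tested. Creb3l3, Ppara, Ppargc1b, Insig2 and Rxra rose (9.77% of all genes did) and Srebf1 and Mlxipl fell (9.14%). The median log2 change of the 10 members was 0.24, beside 0.00 over all genes. All 10 members passed the filter on low counts, with medians from 18 (Pparg) to 2699 (Insig2) counts per library. Markers of cell types moved with fasting as well. Of 10 hepatocyte markers 4 rose and 1 fell (median sum 53877 CPM fasted against 44738 fed), of 8 Kupffer cell markers 1 fell (297 against 402 CPM), of 8 stellate markers 2 fell (459.5 against 469), and of 6 endothelial markers 1 rose (306 against 319). The hepatocyte list includes Pck1, with a mean of 7772 CPM fasted against 2629 fed. Pck1 is also on the list of PGC-1α targets below, so the hepatocyte sum does not measure hepatocyte content alone. Of 5 adipose markers tested 1 fell (405 against 2365 CPM for the list). These 2 medians were mostly Car3, because the 7 other adipose markers summed to at most 68.1 CPM on HF and 72.9 CPM on LF. The part of these cell types in the members' changes was not tested. High-fat diet moved 2 members, Pparg up and Ppargc1a down, against 3.49% of all genes (2.26% higher and 1.24% lower), and the genotype moved 0.

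**Figure D1:**
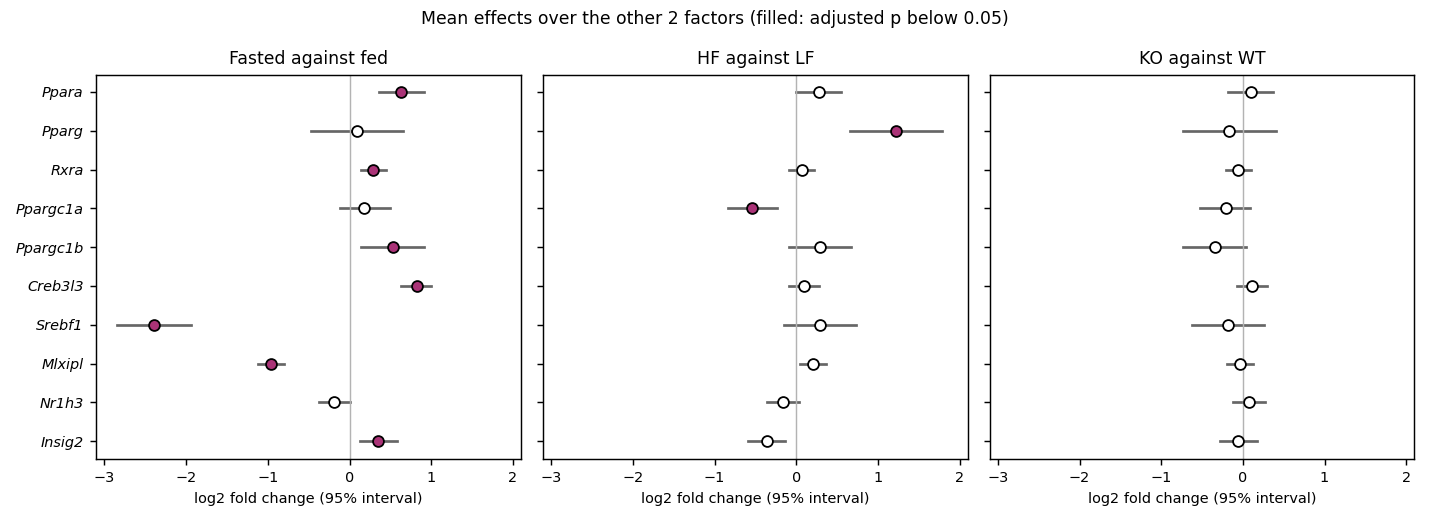
Log2 fold changes of the 10 members for fasting (fasted against fed), diet (HF against LF) and genotype (KO against WT), each averaged over the other 2 factors in 30 libraries. Points are the estimates and lines the 95% intervals, and filled points have an adjusted p below 0.05. Srebf1 at -2.40 and Mlxipl at -0.96 lie farthest below 0 in the fasting panel, and Pparg at 1.22 stands apart in the diet panel.

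Srebf1 showed the largest change of all members with feeding. In CPM, fed mice had 101.6, 249.8 and 209 (WT LF), 190.5, 147, 168 and 130.1 (WT HF), 209, 178, 256 and 268 (KO LF), and 109.5, 179.6, 156 and 193 (KO HF). Fasted mice had 22.3, 27.6, 37 and 32.1 (WT LF), 50.2, 90.6, 47.6 and 38.4 (WT HF), 2.2, 23.4, 32.6 and 23.8 (KO LF), and 66.5, 25.1 and 29.7 (KO HF). All 15 fasted mice lay below all 15 fed mice. The mean effect was a log2 change of -2.40 (SE 0.22, adjusted p = 1.6e-08), 5.26-fold lower. It was called in all 30 fits with a single library left out and in all 13 other settings, and within the lanes it was -2.17 (lane 7) and -2.43 (lane 8). The order of the group means ran from KO LF fed (228 ± 41.7 CPM, SD, n = 4) to KO LF fasted (20.5 ± 12.9), and the ranges of neighbouring groups overlapped everywhere except between the lowest fed group (WT HF, 159 ± 26.1) and the highest fasted group (WT HF, 56.7 ± 23.2). The lowest value, 2.2 CPM in KO LF fasted replicate 1, rests on 5 counts; without that mouse the mean effect was -2.31. Srebf1 overlaps the antisense gene Rai1 (median 28 counts per library) by 109 exon bases, and reads of the 2 genes there cannot be told apart without strand.

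Mlxipl fell with Srebf1, but less. Fed mice had 294, 309 and 340.4 CPM (WT LF), 274, 275, 253 and 278 (WT HF), 288, 260.3, 298 and 292 (KO LF), and 267, 249, 214.5 and 271 (KO HF). Fasted mice had 113, 120.5, 116 and 96.2 (WT LF), 148, 220.2, 188 and 162 (WT HF), 159.8, 108.7, 118 and 99.5 (KO LF), and 199, 179 and 147 (KO HF). All but 1 of the 15 fasted mice, WT HF fasted replicate 2, were below every fed mouse. The log2 change was -0.96 (SE 0.08, adjusted p = 9.1e-12), 1.94-fold lower, with -0.75 in lane 7 and -1.17 in lane 8. It held in all 30 fits with a library left out and in all 13 other settings. The group means ran from WT LF fed (314 ± 23.9, SD, n = 3) to WT LF fasted (111 ± 10.6, n = 4), and the ranges of every pair of neighbours in that order overlapped.

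Creb3l3 had the most marked rise. Fed mice had 206, 165 and 184 CPM (WT LF), 219, 169, 196 and 274.5 (WT HF), 165, 192, 175 and 213.5 (KO LF), and 240.4, 240.6, 256 and 286 (KO HF). Fasted mice had 333, 383, 354 and 335 (WT LF), 399, 239.9, 387 and 414 (WT HF), 542, 438, 308 and 417 (KO LF), and 258, 371 and 385 (KO HF). The fasted values exceeded all fed values in 13 of 15 mice, the exceptions being WT HF fasted replicate 2 and KO HF fasted replicate 1. The log2 change was 0.82 (SE 0.09, adjusted p = 8.9e-09), 1.76-fold higher, called under every setting run, with 0.81 in lane 7 and 0.79 in lane 8. These 2 exceptions also held the highest fasted Srebf1 and Mlxipl values. The former is the library with 17633 CPM of acinar pancreas markers, whose part in these values was not tested; without it Creb3l3 changed by 0.85, Srebf1 by -2.48 and Mlxipl by -0.99.

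Ppara itself rose with fasting in all 4 combinations of genotype and diet. Fed mice had 115, 104 and 155 CPM (WT LF), 138, 94.2, 182 and 207 (WT HF), 77.3, 80.7, 114 and 144 (KO LF), and 167.5, 141, 176 and 119 (KO HF). Fasted mice had 127.5, 139.7, 207 and 174 (WT LF), 217, 141, 242 and 213 (WT HF), 393, 162, 183 and 211 (KO LF), and 176, 260.4 and 237 (KO HF). The fed and fasted ranges overlapped, with 8 of 15 fasted mice above all fed mice. The log2 change was 0.63 (SE 0.13, adjusted p = 7.3e-04), or 1.55-fold. It was called in all 30 fits with a library left out and in 12 of 13 other settings, the exception being lane 7 alone (0.79, adjusted p = 0.0849). KO LF fasted replicate 1 was far above its group (393 against 162 to 211 CPM), and the effect without it was 0.54. This is the mouse with low hepatocyte and high Kupffer cell and endothelial markers, whose part in its values was not tested. In the heterodimer partner Rxra the rise was small. Its fasted mice ran from 205.5 to 305 CPM (median 251.0) and its fed mice from 171 to 287 (median 198), with a log2 change of 0.29 (SE 0.08, adjusted p = 0.00486). That call was lost in lane 7 alone (0.22, adjusted p = 0.494) and with all 32 libraries (0.23, adjusted p = 0.323).

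**Figure D2:**
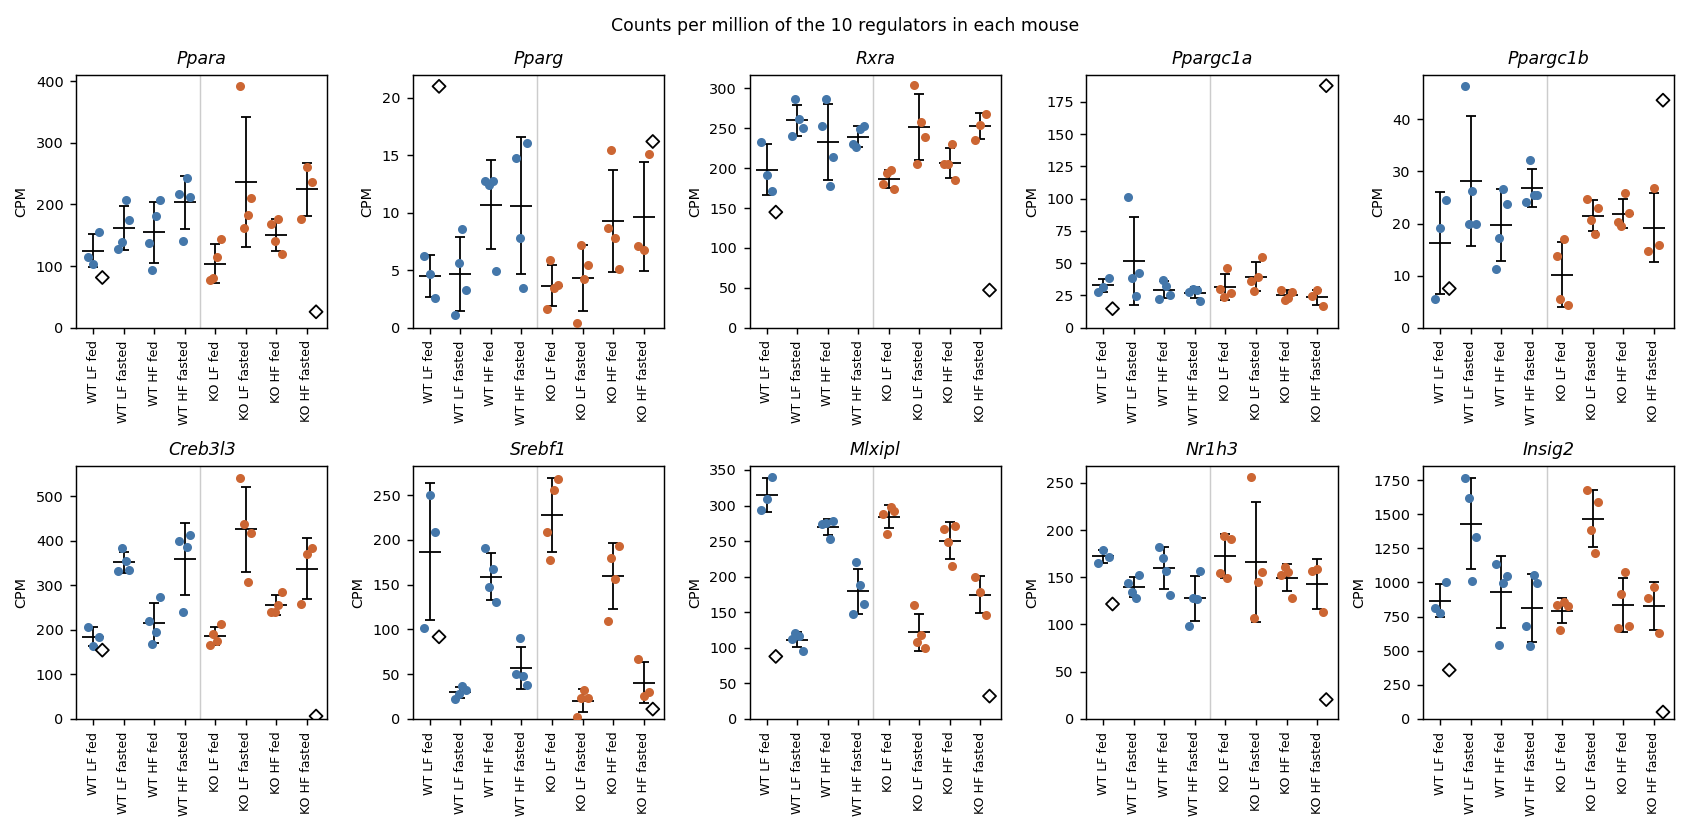
CPM of each member in each mouse by group, with blue points for WT, orange points for KO, and bars for the mean ± SD of the libraries used (n = 3 or 4). Open diamonds are the 2 libraries left out, scaled together with the 30. Fasted Srebf1 values (2.2 to 90.6 CPM) lie below all fed values (101.6 to 268 CPM), and fasted Insig2 values stand above fed ones in the LF panels and not in the HF panels.

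Insig2, the anchor of SREBP precursors, responded to fasting on the low-fat diet. Fed LF mice had 815, 779 and 1007 CPM (WT) and 836.5, 655, 856 and 826 CPM (KO). Fasted LF mice had 1769, 1616, 1011 and 1332 CPM (WT) and 1679, 1385, 1213 and 1590.4 CPM (KO). On LF every fasted value exceeded every fed value. On HF the fed mice had 1138, 541, 997 and 1048 CPM (WT) and 667.5, 913, 1080 and 682 CPM (KO), and the fasted mice had 679, 532.5, 1052 and 995 CPM (WT) and 884, 969 and 630.5 CPM (KO). Here the fed and fasted ranges overlapped. Averaged over the diets the log2 change was 0.35 (SE 0.11, adjusted p = 0.0216). That average was not called in either lane alone (0.29 and 0.31) or with all 32 libraries (adjusted p = 0.423). Group means ran from KO LF fasted (1467 ± 210, SD, n = 4) to KO LF fed (793 ± 93.2), and neighbours in the order overlapped throughout.

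The oxysterol receptor gene Nr1h3 had the smallest ratio of the highest to the lowest group mean (1.35), with means between 128 ± 24.1 CPM (WT HF fasted, SD, n = 4) and 172 ± 23.2 CPM (KO LF fed). Fasted mice ran from 98 to 256 CPM (median 144) and fed mice from 128.5 to 194 (median 160.5), a log2 change of -0.19 (95% interval -0.38 to 0.01, adjusted p = 0.189). The highest value came from KO LF fasted replicate 1; without that mouse the change was -0.26 and passed (adjusted p = 0.0151).

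The coactivator genes were weakly affected. Ppargc1b, encoding PGC-1β, ran from 14.8 to 46.5 CPM in fasted mice (median 24.2) and from 4.37 to 26.7 CPM in fed mice (median 19.1). Its log2 change was 0.53 (SE 0.19, adjusted p = 0.0475), but only 10 of the 30 fits with a library left out called it, and it was 0.51 (adjusted p = 0.118) over 26 libraries. Ppargc1a, whose induction in fasting liver is textbook knowledge, changed by 0.18 (95% interval -0.12 to 0.49, adjusted p = 0.462), with fasted mice between 16.7 and 101.1 CPM (median 29.5) and fed mice between 21.5 and 46.6 CPM (median 28). The value of 101.1 CPM, in WT LF fasted replicate 1, was more than the 24.5 to 42.4 CPM of its group. The same mouse had the highest Ppargc1b value, 46.5 CPM.

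Diet moved Pparg and Ppargc1a. PPARγ, encoded by Pparg, is an adipocyte receptor that is known to rise in fatty liver. On LF its values were 6.23, 4.68 and 2.57 CPM (WT fed), 1.12, 5.6, 8.6 and 3.28 (WT fasted), 1.6, 5.89, 3.43 and 3.75 (KO fed), and 0.44, 7.19, 4.21 and 5.46 (KO fasted). On HF they were 12.8, 12.4, 12.8 and 4.96 (WT fed), 14.8, 7.8, 3.48 and 16.1 (WT fasted), 8.69, 15.5, 7.79 and 5.12 (KO fed), and 7.07, 6.79 and 15.1 (KO fasted). Of the 15 HF mice, 8 lay above all LF mice, and the rest overlapped. These are 1 to 56 counts per library. The log2 change was 1.22 (SE 0.28, adjusted p = 0.00804), or 2.33-fold, in the same direction in all 4 combinations of genotype and feeding, of which none passed singly. All 30 fits with a library left out called it, but it was not called in lane 7 (1.36, adjusted p = 0.194), in lane 8 (0.73, adjusted p = 0.419), with 31 libraries (0.99, adjusted p = 0.074) or with all 32 (1.05, adjusted p = 0.0965).

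Adipocyte and macrophage markers were read beside Pparg. Of 8 adipose markers, 5 were tested and 1 rose with diet, Car3 (1.73, adjusted p = 0.00307), whose level in LF mice ran from 28.4 to 2360 CPM and in HF mice from 707 to 3627. The 7 other adipose markers summed to 9.33 to 68.1 CPM on HF (median 24.9) and to 3.6 to 72.9 CPM on LF (median 14.4). Adipoq, Plin1 and Lep, which define adipocytes, had a median of 0 CPM on HF and of at most 0.479 CPM on LF. Car3 stood far above these genes, with medians of 2294 CPM on HF and 382 CPM on LF. Adipoq changed by -1.08 (adjusted p = 0.599). Cfd changed by 2.02 (adjusted p = 0.0792, median 11.5 CPM on HF and 1.32 on LF) and Cidea by 1.82 (adjusted p = 0.29, median 1.37 and 0.257 CPM), in the direction of Pparg without passing. Cidea is also on the list of PPARγ targets of fatty liver used below. Of the 8 Kupffer cell markers 0 passed, and their sum ran from 265 to 633 CPM on HF and from 220.4 to 560.4 on LF. In the stellate list 1 of 8 genes rose, with sums of 399 to 621 CPM on HF and 373 to 545 on LF. The part of these cells in the Pparg difference was not tested.

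Ppargc1a was lower on HF. LF values were 28, 31.4 and 38.6 CPM (WT fed), 101.1, 38.8, 24.5 and 42.4 (WT fasted), 29.7, 24, 46.6 and 26.8 (KO fed), and 36.1, 28.3, 39.5 and 54.6 (KO fasted), against 16.7 to 37.2 CPM (median 27.8) in the 15 HF mice. Only 5 HF mice were below all LF mice. The log2 change was -0.54 (SE 0.15, adjusted p = 0.0384), 1.45-fold lower. This call was lost in 14 of 30 fits with a library left out; without WT LF fasted replicate 1 the change was -0.40 (adjusted p = 0.0698). It was -0.50 (adjusted p = 0.128) over 26 libraries, -0.58 and -0.63 in the separate lanes, and -0.11 with all 32 libraries, among which the heart library had 188 CPM. Insig2 was 0.36 log2 units lower on HF without passing (log2 change -0.36, adjusted p = 0.0604).

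The response to fasting differed between the diets for 2 members, against 2.46% of all genes (1.26% higher and 1.2% lower on HF than on LF). For Insig2 the fasting effect on HF minus that on LF was -0.91 (SE 0.22, adjusted p = 0.0208). The separate changes on LF were 0.72 in WT (adjusted p = 0.0516) and 0.89 in KO (adjusted p = 0.00372), and on HF their 95% intervals were -0.62 to 0.24 in WT and -0.48 to 0.45 in KO. For Mlxipl the difference was 0.81 (SE 0.16, adjusted p = 0.00247), since it fell by 1.50 in WT and by 1.23 in KO on LF and by 0.58 (adjusted p = 0.0657) and 0.52 (adjusted p = 0.197) on HF. Fasted Mlxipl was higher on HF than on LF in WT (0.69, adjusted p = 0.00972, 1.12% of genes called), with no overlap between the 4 HF and the 4 LF mice. Fed Mlxipl had log2 changes of -0.22 (WT) and -0.18 (KO) with diet, which did not pass, although the 3 LF and 4 HF fed WT mice did not overlap. Srebf1 pointed the same way without passing (1.33, SE 0.42, adjusted p = 0.111; limma voom, 1 of 10 other settings, called it at adjusted p = 0.0481), with log2 changes of -2.65 and -3.47 on LF and -1.48 and -1.98 on HF. Both calls were kept over 26 libraries (Insig2 -0.91, adjusted p = 0.0323, and Mlxipl 0.70, adjusted p = 0.0207). Neither was called with all 32 libraries, where only 22 genes passed, Mlxipl was not with 31 (0.67, adjusted p = 0.144), and without WT LF fed replicate 3 the Insig2 adjusted p was 0.0529.

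**Figure D3:**
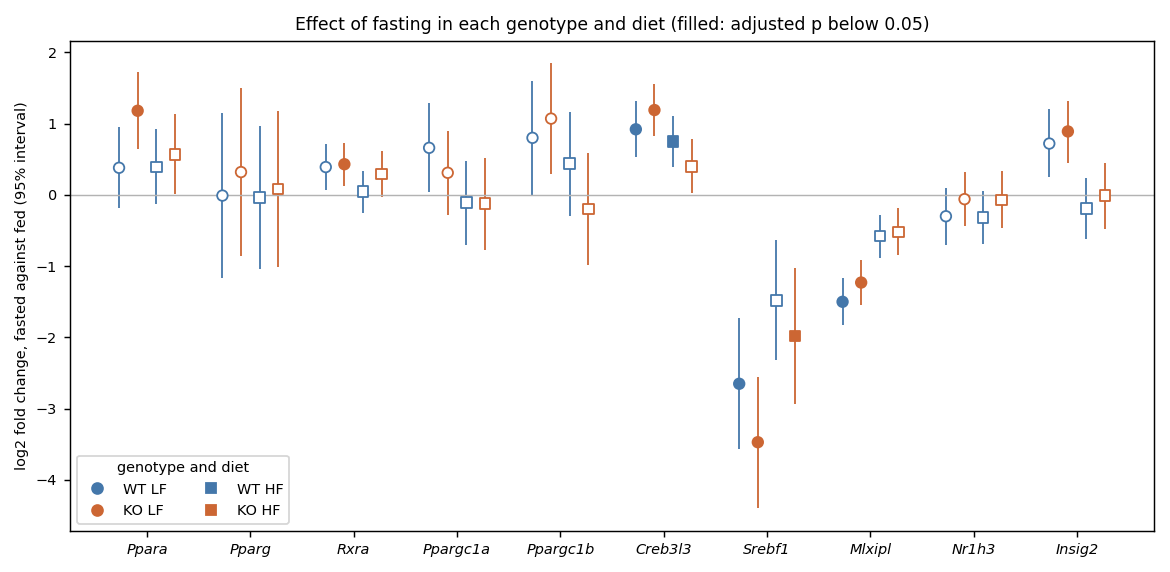
Log2 fold change of each member, fasted against fed, in each combination of genotype (blue WT, orange KO) and diet (circles LF, squares HF), with 95% intervals. Filled symbols have an adjusted p below 0.05. The circles of Insig2 (0.72 and 0.89) stand above its squares, and the circles of Mlxipl (-1.50 and -1.23) below its squares (-0.58 and -0.52).

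Within single combinations, fasting was called for 3 members in WT LF (7.54% of all genes), namely Creb3l3 (0.92), Srebf1 and Mlxipl, and for 6 in KO LF (13.8%), namely Ppara (1.18), Rxra (0.43), Creb3l3 (1.19), Srebf1, Mlxipl and Insig2. On HF 1 member was called in WT, Creb3l3 (0.75, adjusted p = 0.0334, 0.424% of genes), and 1 in KO, Srebf1 (-1.98, adjusted p = 0.0478, 0.527%). Without the acinar pancreas library WT HF fasted replicate 2, 3 members were called in WT HF: Creb3l3 (0.90, adjusted p = 0.00381), Mlxipl (-0.70, adjusted p = 0.0154) and Srebf1 (-1.80, adjusted p = 0.0349). The share of all genes called in that fit is not given here, so these 3 calls cannot be set against it. The Srebf1 call in KO HF was kept in only 6 of 30 fits with a library left out, and the Rxra call in KO LF in 18. Exact permutation tests (two-sided) of each member in each of the 12 comparisons of 2 groups could go no lower than p = 0.0286, and 0.149 was the smallest value after adjustment over the 120 tests.

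No member was called between the genotypes. Over diet and feeding, the log2 changes (KO against WT) ran from -0.34 for Ppargc1b (95% interval -0.73 to 0.04) to 0.11 for Creb3l3 (-0.07 to 0.30), and 0 members had an unadjusted p below 0.05. DESeq2 and limma voom called 0 members too. The intervals were narrow for Mlxipl (-0.20 to 0.12) and Rxra (-0.21 to 0.10) and wide for Pparg (-0.73 to 0.40). Among all genes 1 passed, Acadm, which is 0.00865%. In the 4 comparisons at a single diet and feeding state, 0 members were called under any setting run; Ppara in LF fasted mice had an unadjusted p of 0.0409 (0.55, adjusted p = 0.83), and 237 ± 106 CPM (KO, SD, n = 4) stood beside 162 ± 35.8 (WT, n = 4). Without KO LF fasted replicate 1 that difference was 0.19. The difference of the fasting effect between the genotypes was called for 0 members and 0 genes by edgeR, with 0 members and 573 genes at an unadjusted p below 0.05; DESeq2 and limma voom also called 0 members.

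The target genes of these regulators were counted from lists taken from textbook knowledge. Over all genes, 9.77% rose and 9.14% fell with fasting. Of 26 PPARα targets, 23 rose with fasting and 0 fell (median 1.29), with the carnitine carrier Slc25a20 at 1.15, the carnitine palmitoyltransferase Cpt1a at 1.40 and the ω-hydroxylase Cyp4a31 at 4.16. Cd36 (0.47), Pdk4 (0.32) and Fabp1 (-0.08) did not pass. Of 15 SREBP-1c targets tested 13 fell (median -1.76), among them Acly (-2.78), Fasn (-3.28) and Acss2 (-2.21), which supply and build fatty acids, and Mid1ip1 (-2.39). Of 12 ChREBP targets 7 fell, including pyruvate kinase Pklr (-2.36) and Elovl6 (-1.82), and 2 rose, among them Gpd1 (0.73). Acly, Fasn and Elovl6 stand in both of these lists.

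All 13 tested genes of the SREBP-2 list, which make or import cholesterol, fell (median -2.01), among them Fdps (-3.39), Fdft1 (-1.23), Stard4 (-1.90) and Insig1 (-2.90). Averaged over the diets, Insig1 and Insig2, which encode related retention proteins, moved in opposite directions with fasting. On HF alone Insig2 did not rise (-0.19 in WT and -0.01 in KO, neither called). Of 6 CREB3L3 targets 5 rose, namely Cidec (4.73), Apoa4 (1.91), Fgf21 (1.68), Apoa5 (0.46) and Apoc2 (0.30); Fgf21 is on the PPARα list too. LXR targets were mostly not called, with 2 of 10 higher (Cyp7a1, the rate-limiting enzyme of bile acid synthesis, 2.08, and Mylip, 0.62). PGC-1α targets rose in 4 of 10 (Pck1 1.56, Alas1 1.75, Cpt1a and Ppara), and of 8 PPARγ targets of fatty liver Cidec, Plin4 (2.36) and Plin2 (1.08) rose. Cpt1a and Plin2 were already counted on the PPARα list and Cidec on the CREB3L3 list, and Ppara is itself a member.

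**Figure D4:**
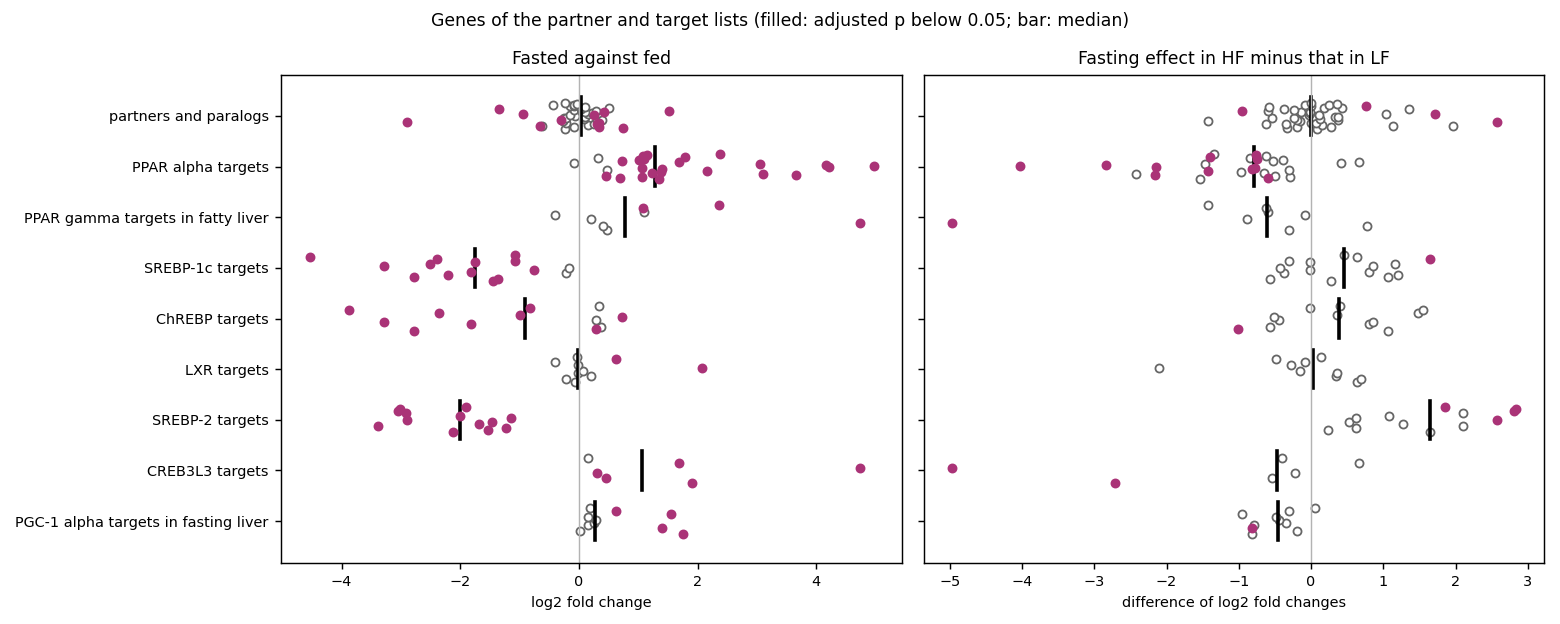
Log2 fold changes of the genes in the partner and target lists, fasted against fed (left), and the fasting effect on HF minus that on LF (right). Filled points have an adjusted p below 0.05 and bars are medians. PPARα targets (median 1.29) lie above 0 on the left and below 0 on the right (median -0.80), and SREBP-2 targets do the opposite (-2.01 and 1.65).

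With high-fat diet, 2 of 26 PPARα targets rose (Cd36, a fatty acid transporter, 1.29, and Aldh3a2, 0.79), as did Stard4 (0.82). Acacb (-1.19) and Hamp (-0.84) fell. Over all genes, 2.26% rose and 1.24% fell with diet. Cd36 is also on the PPARγ list, where it was the called gene out of 8. In the PPARα and SREBP-2 lists the diet altered the fasting response of more genes, beside 2.46% of all genes. On HF, 11 of 26 PPARα targets rose less with fasting and 0 rose more, including Slc25a20 (-0.76), Cpt1a (-0.82) and Cyp4a14 (-4.03), and 4 of 13 SREBP-2 targets fell less, among them Stard4 (1.86), Insig1 (2.58) and Sqle (2.84). Ppara itself had a difference of -0.30 (95% interval -0.84 to 0.25), which did not pass. Of 15 SREBP-1c targets 1 passed, Mid1ip1 (1.64). Between the genotypes 1 gene of these lists passed, Acadm.

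Among 43 partners and paralogs of the members, 7 rose and 5 fell with fasting (median 0.03), beside 9.77% and 9.14% of all genes. The largest rise was that of the nuclear receptor CAR, Nr1i3 (1.52, 231 ± 39.2 CPM fasted against 85.4 ± 29.5 fed, SD, n = 15 each), which also was higher on HF (0.35) and rose less with fasting there (-0.96). Hnf4a (0.34), Nr1h4, which encodes the bile acid receptor FXR (0.43), Foxo1 (0.31), Ncor1 (0.25), Creb3 (0.34) and Cebpb (0.75) rose too. Insig1, the PPARα paralog Ppard (-1.34), the corepressor Nr0b2 (-0.94), Creb3l2 (-0.65) and the SREBP-cleaving protease gene Mbtps1 (-0.30) fell. Diet raised the clock repressor Nr1d2 (0.59) and Usf1 (0.44) and lowered Lpin1 (-1.18). The SREBP escort Scap had a fasting effect that was 0.76 higher on HF than on LF (adjusted p = 0.00981).

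Across the 30 libraries, Srebf1 and Mlxipl followed each other (Pearson r = 0.80 of log2 CPM), as did Ppara and Creb3l3 (0.78), and Creb3l3 ran against Srebf1 (-0.88). The libraries share feeding groups, so these values include the differences between the groups. After the group means were subtracted, the values were -0.22 for Srebf1 and Mlxipl, 0.63 for Ppara and Creb3l3, and -0.62 for Creb3l3 and Srebf1. The genes most like Srebf1 were Mid1ip1 (0.96), Cyp4f14 (0.93) and Nrn1 (0.93), and those most like Creb3l3 were Cpt2 (0.96), Abcb4 (0.96) and Hsdl2 (0.95). For Mlxipl they were Nat8f1 (0.94), Stard4 (0.92) and Nudt7 (0.92), for Insig2 Atf5 (0.85), Trim2 (0.83) and Slc25a47 (0.82), and for Ppara Paqr7 (0.89), Inhbe (0.87) and Adtrp (0.82). Nearest to Nr1h3 were Prdx1, Ppp6r3 (both 0.83) and Rplp1 (0.81). The likeness was lower for Rxra (Tram2, Gm4952 and Prune1, all 0.77), Ppargc1a (Got1 0.77, E230001N04Rik 0.75, Slc25a15 0.69), Ppargc1b (Trim24 0.76, Pde4d 0.73, Ccpg1os 0.72) and Pparg (C730036E19Rik 0.75, Ildr2 and Cxcl10, both 0.72).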

How the data were processed

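Liver RNA of 32 mice was sequenced from the 3′ end (Lexogen QuantSeq). The authors mapped reads to GRCm38 and counted them per gene; the submitters' processing notes name HISAT 0.1.5, SAMtools 1.2 and HTSeq 0.6.1p1, and the study's methods name union mode. Whether strand was used is not given in the sources used here. The deposited values are raw counts of 20076 genes, without normalization. Symbols from the annotation of the same build matched 19913 identifiers, and the other 163 held 0.125% of counts.

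Groups, replicate numbers, lanes (16 libraries on each of lanes 7 and 8) and ages came from the labels. The supplementary methods describe 8 libraries per lane instead, and which is right is not known, so that the lane values rest on the labels. All used WT LF fed libraries were on lane 8. The members, lists and tests were chosen with earlier results of these data known, and so were the 2 libraries left out. Counts were fitted in edgeR 4.0.16 (R 4.3.3) with TMM, filterByExpr and the robust quasi-likelihood test in a model of the 8 groups, with 18 contrasts each adjusted over 11566 genes. The main effects are means of 4 differences between groups. Each lane alone was fitted with feeding, diet and genotype as additive terms. Lane values are therefore not the same quantity as the main effects, and lane 7 held no WT LF fed library. SE is the log2 change divided by the root of F. CPM are TMM-scaled, and correlations used log2 CPM with a prior count of 2. P-values measure the spread between mice. The fit was tested on simulated counts.

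Named were all 10 members, the 3 genes most correlated with each, and per list up to 4 called genes with the smallest p for fasting and for diet; other list genes named, and the mice singled out, were chosen after their values were seen. Some genes that this rule selects are not reported here. Alternatives were DESeq2 1.42.0, limma 3.58.1 voom, RLE scaling, no filter, terms for lane, age or replicate number, an additive model, each lane alone, fits of 2 groups, and other sets of libraries. The set of 26 libraries was chosen after seeing the data. Exact permutation tests used Python 3.11.15.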

Additional observations from a re-analysis of the deposited data

Results flagged for a closer look

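In 60 tests of a member in a group of 4 mice, 5 single values lay far from the rest of their group, where chance gives about 1 in 20 tests. Pparg was 4.96 CPM in WT HF fed replicate 4, below 12.4 to 12.8 CPM in the other mice of that group. Ppargc1b was 32.3 CPM in WT HF fasted replicate 2, above 24.2 to 25.5 CPM in the others, and Creb3l3 was 239.9 CPM in the same mouse, below 387 to 414 CPM. That library also held 17633 CPM of acinar pancreas markers. Mlxipl was 252.6 CPM in WT HF fed replicate 3 (274 to 278 CPM in the others), and Insig2 was 654.6 CPM in KO LF fed replicate 2 (826 to 856 CPM in the others).

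The effect of fasting differed between the diets for Mlxipl, by 0.81 log2 units (SE 0.16, adjusted p = 0.00247, edgeR), and for Insig2, by -0.91 (SE 0.22, adjusted p = 0.0208, edgeR), HF minus LF. Both genotypes showed the direction in both genes.

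Signals in the 2 libraries left out went beyond all 30 used. With all 32 libraries scaled together, Pparg was 21 CPM (67 counts) in WT LF fed replicate 2, against 0.444 to 16.3 CPM in the 30, and Ppargc1a was 187.6 CPM (614 counts) in KO HF fasted replicate 4, against 16.9 to 102.1 CPM. The latter library also held 50.4 CPM of Insig2 and 6.42 CPM of Creb3l3, both below the 30.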

How the results depend on the processing

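The fasting effects of Srebf1, Mlxipl and Creb3l3 kept direction and call in all 30 fits without a single library and in all 13 other settings; Pparg with diet kept its call in 30 and 9, and Ppargc1b with fasting in 10 and 4. With fasting 7 members were called (5 to 7 with a library left out) and 3 in lane 7 alone. Over all genes, fasting was called for 2187 of 11566 in the main fit and for 344 of 11303 in lane 7. With diet 2 were called (1 to 3 with a library left out), 0 with 32 libraries, with 31 and in lane 7 or lane 8 alone, and 1 without the filter on low counts, with age as a term, with the replicate block and with 26 libraries. Over all genes, diet calls were 404 in the main fit, 361 with 31 libraries, 53 in lane 7 and 85 in lane 8. They were 339 without the filter, 370 with age, 360 with the replicate block and 253 with 26 libraries. Fasting in WT LF gave 5 calls with 31 libraries. Fasting in WT HF gave 0 calls with 32 or 31 libraries or an age term, 3 with DESeq2, limma voom or 26 libraries, and 0 to 3 with a library left out. Fasting in KO LF gave 2 calls with 32 libraries, and fasting in KO HF gave 0 with 31 libraries, no filter, a lane or age term, the replicate block or only the 2 groups, and 0 to 1 with a library left out. The diet effect in WT fasted mice gave 0 calls with 32, 31 or 26 libraries, 2 with RLE, DESeq2, limma voom or an age term, and 0 to 3 with a library left out; in KO fasted mice it gave 2 with DESeq2 and 0 to 1 with a library left out. The difference of the fasting effect between diets gave 0 calls with 32 libraries, 1 with 31 and 1 to 2 with a library left out, the 1 being without WT LF fed replicate 3. The additive model and the single lanes give no such difference. For the single combinations, calls over all genes under these other settings are not given here, nor are any with a library left out. Where the 2 libraries left out were included, fewer genes passed overall (81 for diet and 22 for the difference with all 32, against 404 and 285). The cause of the other changes was not tested.

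Direction also turned in some values, none of them called. The fasting effect of Pparg was 0.09 and became -0.08 with 32 libraries, -0.14 with 31, -0.06 with limma voom, -0.29 in lane 7 and -0.03 to 0.18 with a library left out (-0.02, -0.01 and -0.03 without WT LF fasted replicate 3, KO LF fasted replicate 2 and KO HF fasted replicate 3). The diet effect was -0.01 for Rxra and -0.08 for Creb3l3 in lane 7, and -0.14 for Srebf1 in lane 8 (0.29 over both lanes). The genotype effect in lane 8 was -0.03 for Ppara and for Nr1h3, 0.10 for Pparg, 0.15 for Ppargc1a and 0.07 for Srebf1; it was 0.21 for Ppargc1a with 32 libraries, 0.00 for Insig2 with 31, and 0.03 (31 libraries), 0.12 (lane 7) and 0.01 (26 libraries) for Mlxipl. With 32 libraries Creb3l3 changed by -0.01 with fasting in KO HF (0.40 with 30) and Ppargc1a by 0.74 with diet in KO fasted mice (-0.76 with 30).

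Same-numbered mice of different groups did not deviate together (98 pairs, median correlation of deviations 0.01, range -0.20 to 0.17, 2 above 0.1). The numbers follow the labelled lanes in part, however. Replicates 1 and 2 were on lane 7 except in WT LF fed, and replicate 4 was on lane 8. A replicate block therefore also takes up lane. It changed fasting calls of members from 7 to 6 (2187 to 2124 over all genes) and diet calls from 2 to 1 (404 to 360 over all genes). Counts of 1 to 56 limit Pparg most, with an SE of 0.28.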
